A study of Mus musculus with 6 samples.

Results

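The genes described here are 37 genes of the skeletal muscle programme, 10 regulators and 27 genes of the differentiated muscle cell, chosen by name from 22350 protein-coding genes on 20 chromosomes. All 37 were found by symbol in the mm9 gene annotation. The regulators were Myod1, Myf5, Myf6, Myog, Pax7, Pax3, Mef2a, Mef2c, Mef2d and Six4. The late genes were 18 contractile genes (Myh1, Myh2, Myh3, Myh4, Myh7, Myh8, Acta1, Actc1, Tnni1, Tnni2, Tnnt1, Tnnt3, Tnnc1, Tnnc2, Mylpf, Myl1, Myl4 and Neb) and 9 other late genes (Ckm, Des, Cav3, Tmem8c, Casq2, Ryr1, Musk, Chrna1 and Chrng).

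Chromatin immunoprecipitation followed by sequencing was done in proliferating C2C12 myoblasts, an established mouse line kept in serum-rich medium, with antibodies against the histone methyltransferase Setdb1 and against H3K9me3, trimethylated lysine 9 of histone H3. The labels name 6 libraries with 1 library in each group: H3K9me3, Setdb1, Setdb1 with DMSO, Setdb1 with Wnt3a at 50 ng/ml for 24 h, and an input for each antibody. The deposited lists held 80480 H3K9me3 peaks called with MACS (narrow regions, median 422 bp), 23268 H3K9me3 islands called with SICER (broad regions, median 5800 bp) and 1191 Setdb1 sites (median 571 bp). The Setdb1 list does not say which Setdb1 library it came from, no list was named for the DMSO or Wnt3a library, and with 1 library a group no test over samples was possible. The number of sequenced reads per library is not in the lists, so the depth behind them is unknown here, and a gene without a listed region had none that passed the callers' limits at that depth. The lists hold no RNA, so neither the expression of these genes nor the identity of the cells could be checked with them.

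Skeletal muscle forms in steps. The paired box factors Pax3 and Pax7 mark muscle progenitors, the basic helix-loop-helix factors Myf5 and MyoD commit them to the muscle lineage, and myogenin, with the MEF2 factors, switches on the genes of the contractile apparatus when myoblasts leave the cell cycle and fuse. H3K9me3 is a mark of silent chromatin, and Setdb1 is one of the enzymes that places it. The lists were read for the 37 genes at their starts (1 kb on each side of any annotated transcript start), in their bodies (the whole annotated gene) and within 50 kb of a start. One shared base counted as an overlap.

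The regions that the results below turn on are shown first, read from the mm9 genome 5′ to 3′. The H3K9me3 peak over the start of Pax3 is shown by 200 bases around its summit (chr1:78192883-78193082, minus strand, intronic) and by the 200 bases before the 5′ end of the gene, which lie under the same peak (chr1:78193710-78193909, minus strand). Capitals mark CpG, the dinucleotide whose density separates the main classes of mammalian promoter.
Pax3 peak: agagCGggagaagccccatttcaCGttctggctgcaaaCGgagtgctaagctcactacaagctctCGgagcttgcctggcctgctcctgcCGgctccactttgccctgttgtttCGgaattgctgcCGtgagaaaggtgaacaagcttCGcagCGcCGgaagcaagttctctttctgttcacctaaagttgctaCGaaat
Pax3 upstream: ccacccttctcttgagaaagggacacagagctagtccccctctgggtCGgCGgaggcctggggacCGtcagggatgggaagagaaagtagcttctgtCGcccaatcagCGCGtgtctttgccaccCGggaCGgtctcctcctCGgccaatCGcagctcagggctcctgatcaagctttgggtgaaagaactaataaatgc
The first stretch held 11 CpG and the second 10. The strongest H3K9me3 peak in a contractile gene lay in Myh8 (chr11:67104512-67104711, plus strand, in an exon of a noncoding transcript), and its 200 bases around the summit held only 2 CpG. Capitals mark the letters GGTTCNANTCC, those of the B box inside tRNA genes.
Myh8 peak: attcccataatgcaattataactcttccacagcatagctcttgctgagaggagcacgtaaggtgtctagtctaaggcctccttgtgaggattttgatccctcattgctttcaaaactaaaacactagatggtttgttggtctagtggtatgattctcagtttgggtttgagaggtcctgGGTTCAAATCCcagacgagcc
Searched on both strands, these letters stood in the 200 bases around 391 of all 80480 H3K9me3 summits (0.486%) and around 2 of the 87 summits near the 37 genes, the other being a peak upstream of Des.

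The Setdb1 list came near 3 of the 37 genes, and the 200 bases around each of those summits are shown on the plus strand, with CpG in capitals (chr12:74261640-74261839 near Six4, chr7:149719372-149719571 near Tnnt3 and chr3:101986563-101986762 near Casq2).
Six4 Setdb1 site: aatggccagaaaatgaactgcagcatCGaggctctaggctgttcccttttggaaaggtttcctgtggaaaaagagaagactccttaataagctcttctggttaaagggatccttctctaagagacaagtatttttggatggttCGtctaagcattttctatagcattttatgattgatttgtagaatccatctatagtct
Tnnt3 Setdb1 site: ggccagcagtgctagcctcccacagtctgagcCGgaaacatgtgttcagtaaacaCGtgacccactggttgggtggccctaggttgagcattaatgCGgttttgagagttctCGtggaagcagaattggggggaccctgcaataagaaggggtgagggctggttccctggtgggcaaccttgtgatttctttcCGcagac
Casq2 Setdb1 site: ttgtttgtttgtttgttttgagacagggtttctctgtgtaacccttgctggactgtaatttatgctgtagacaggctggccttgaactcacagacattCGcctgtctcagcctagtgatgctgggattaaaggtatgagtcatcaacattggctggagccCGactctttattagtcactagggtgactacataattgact
They held 2, 5 and 2 CpG. None of them lay in a body or within 1 kb of a start of the 37 genes.

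At their starts few of the 37 genes carried H3K9me3. A MACS peak lay within 1 kb of a start in 3 of the 37 (8.11%), Pax3, Cav3 and Myl4, beside 8.71% of all protein-coding genes. A SICER island lay there in 5 (13.5%), Pax3, Cav3, Myh1, Myh4 and Myh8, beside 8.58%. All 5 remained with islands of at least 5 kb only, beside 5.69% of all genes, and 3 of them are neighbours in a myosin gene cluster. Both callers marked the start of 2 genes, Pax3 and Cav3 (5.41%, beside 5.53% of all genes), 1 regulator and 1 late gene.

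Within gene bodies the share of marked genes lay above that of all genes. A MACS peak lay in the body of 17 of the 37 genes (45.9%), beside 28.1% of all genes, and an island in 10 (27.0%), beside 19.4%. Gene length moved with this count. Under 10 kb, 9.12% of all genes and 0 of 12 members held a body peak, and from 10 to 50 kb 24.5% of all genes and 9 of 17 members did, 5 of these 9 being neighbouring myosin genes. All 4 members of 50 to 100 kb and all 4 of 100 kb or more held one, beside 55.0% and 84.0% of all genes of those lengths. Per length, the 37 genes held 3.17 body peaks per 100 kb and all genes 2.97. The part of length in the share was not tested beyond these classes.

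A MACS peak lay within 50 kb of a start in 26 of the 37 (70.3%), beside 74.4%, and an island in 19 (51.4%), beside 49.9%. Islands of at least 5 kb lay there in 17 (45.9%), beside 29.3%, and these 17 include the 5 neighbouring myosin genes. With islands of any length, a window of 20 kb held one for 11 of the 37, beside 30.5% of all genes. The median distance from a start to the nearest peak was 21.7 kb for the 37 genes and 20.3 kb for all genes, and to the nearest island 49.4 kb and 50.2 kb. In all, 8 genes had neither a peak nor an island at the start, in the body or within 50 kb. They were Myf5, Myf6, Tnnc1, Tnnc2, Tnni2, Tnnt1, Tnnt3 and Chrna1 (21.6%, beside 23.9% of all genes).

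Setdb1 sites were few, near the genes as in the whole list. No member had a Setdb1 site within 1 kb of a start, beside 1.11% of all genes, and none in the body, beside 2.40%. Both background shares amount to less than 1 gene in 37, so these counts of 0 lie near the background. A site lay within 50 kb of a start in 3 of 37 (8.11%), beside 8.14%. The median distance from a start to the nearest site was 297 kb for the 37 genes and 628 kb for all genes. At the edges of these windows, the peak of Myl4 lay 0.869 kb from a start and that of Ckm, outside, 1.79 kb. The nearest island lay 0.102 kb from a start of Myh4 and, outside, 1.48 kb from one of Myh2. Within the wide window the last peak was that of Six4 at 46.1 kb, with Chrna1 and Chrng just outside at 50.3 and 50.6 kb. The last island was that of Chrng at 49.4 kb, and the last Setdb1 site that of Six4 at 46.9 kb, with Myod1 just outside at 54.6 kb.

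**Figure D1:**
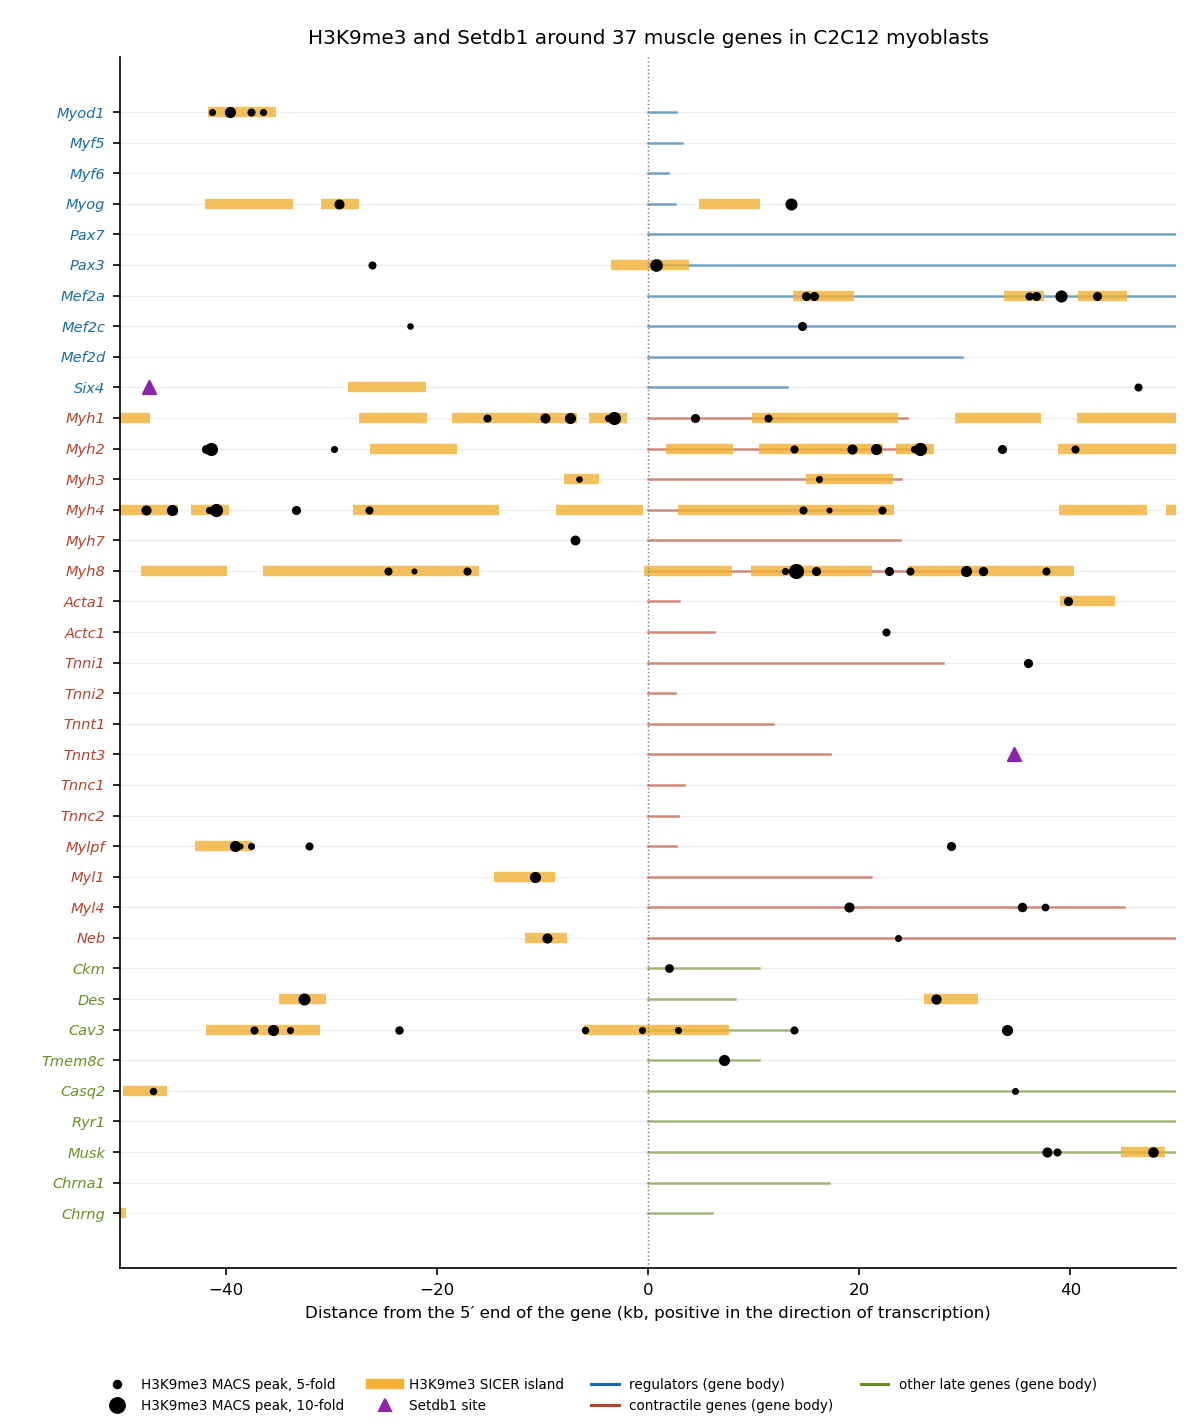
The map shows, for each of the 37 genes (rows, coloured by group), the H3K9me3 MACS peaks (black points, size by fold enrichment), SICER islands (yellow bars) and Setdb1 sites (purple triangles) by their distance in kb from the 5′ end of the gene. Few regions sit at the dotted line of the start. The myosin rows Myh1, Myh2, Myh4 and Myh8 are the most densely marked and repeat each other's regions. The map ends 50 kb from the 5′ end, so the regions of Pax7, Ryr1 and Mef2d, which lie farther out, are not drawn. The 8 genes without peak or island in any zone include 5 of the 6 troponin genes.

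The map of the 37 genes gives each gene its own row. It leaves out what lies more than 50 kb from the 5′ end, such as the Setdb1 site near Casq2. Bodies and windows of 50 kb around any start together held 125 distinct regions, not all of them on the map. Of these 125, 20 were reached by more than 1 of the genes Myh1, Myh2, Myh4 and Myh8, which are neighbours. The 37 genes are therefore not 37 separate observations. The 87 distinct peaks near them resembled the list they came from, with a median enrichment over input of 5.54-fold (5.50-fold in the list), a median of 19.0 tags, the reads under a peak (18.0 in the list), and 39.1% with a MACS p below 1e-05 (38.5% in the list). They ranged from 4.12-fold to 10.31-fold and from 10 to 148 tags. An island overlapped 59.8% of them, beside 64.1% of the list.

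Regulators and contractile genes were compared with few genes behind each share. A peak at the start was found in 1 of 10 regulators (10.0%) and 1 of 18 contractile genes (5.56%), an island at the start in 1 of 10 (10.0%) and 3 of 18 (16.7%), a body peak in 4 of 10 (40.0%) and 7 of 18 (38.9%), and a peak within 50 kb in 7 of 10 (70.0%) and 13 of 18 (72.2%). An island lay in the body of 2 of 10 (20.0%) and 5 of 18 (27.8%), and within 50 kb of 5 of 10 and 9 of 18, 50.0% in both. The 9 other late genes had the highest share with a body peak, 6 of 9 (66.7%), and with a body island, 3 of 9 (33.3%). These shares were not adjusted for gene length. The 4 regulators with a body peak are 95.9 to 164 kb long. Of the 6 other late genes, Casq2, Musk and Ryr1 are 60.1, 91.5 and 122 kb long, and Ckm, Cav3 and Tmem8c 10.5 to 13.4 kb. The median distance from a start to the nearest peak was 30.7 kb for regulators and 13.7 kb for contractile genes, beside 20.3 kb for all genes. To the nearest island it was 68.7 and 50.6 kb, beside 50.2 kb, and to the nearest Setdb1 site 179 and 747 kb, beside 628 kb. Neighbouring myosin genes share regions, so these medians do not rest on separate observations. The groups also parted in how much of a gene was covered. No regulator had 25% or more of its body in islands, and 5 contractile genes did (27.8%, beside 6.11% of all genes), all of them in 1 cluster of myosin genes. Outside that cluster, a split made after the values were seen, 2 of the other 13 contractile genes held a body peak and 0 held a body island.

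**Figure D2:**
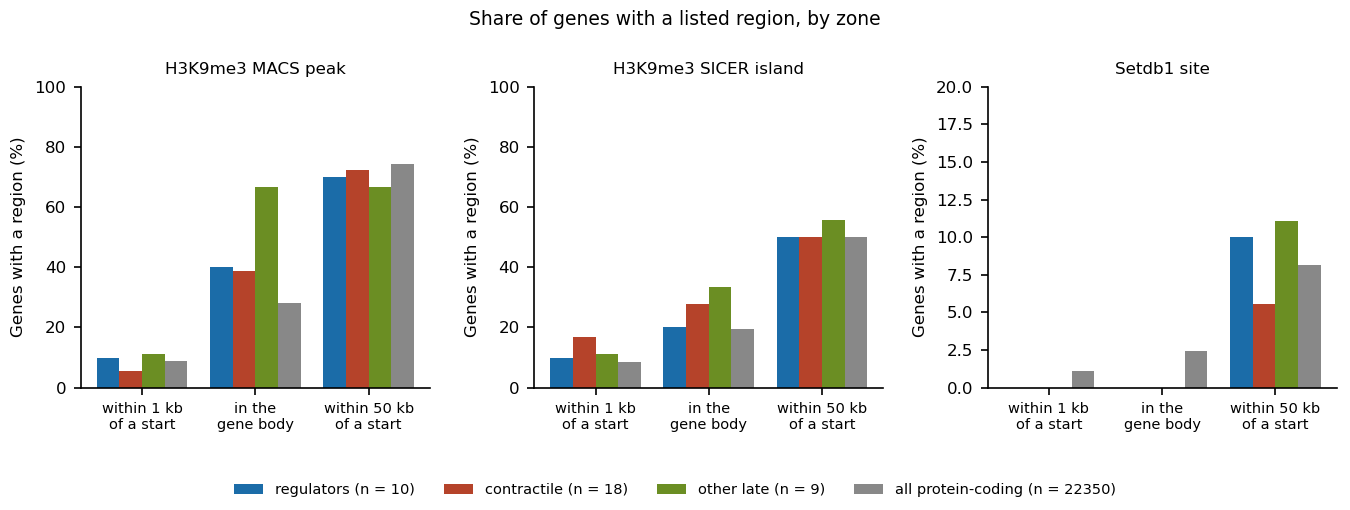
The bars give the percentage of regulators, contractile genes, other late genes and all protein-coding genes with an H3K9me3 MACS peak, a SICER island or a Setdb1 site in each zone (the Setdb1 axis ends at 20%). A start island was found in 16.7% of contractile genes beside 8.58% of all genes, and 66.7% of the other late genes had a body peak beside 28.1% of all genes. No Setdb1 bar rises for the members at the start or in the body.

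The chart of shares by zone has no error bars, since it counts named genes in 1 library. One gene more or less moves a bar by 10.0% among the regulators and by 11.1% among the other late genes.

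Pax3, the paired box factor of embryonic muscle progenitors, carried over its start the H3K9me3 peak with the most tags and the highest score of the 37 genes. By fold, peaks in Myh8, Myh2 and near Casq2 were higher. The peak (chr1:78191672-78194205) was 2.53 kb wide and held 148 tags (exact Poisson 95% interval 125 to 174, counting error only) at 8.59-fold over input. Its MACS score, minus 10 times the log10 of p, was 411.33 with a false discovery rate of 0.69%. It ranked 580 of 80480 peaks by score, within the top 0.721%, and by fold within the top 5.52%. The summit lay in an intron, 0.726 kb from the 5′ end and 0.430 kb from the nearest annotated start. An island of 7.40 kb (chr1:78189801-78197200) spanned the same start and covered 4.08% of the gene, and it stood alone, with the next islands 340 and 318 kb from the gene. A second body peak, 79.6 kb into the gene, held 13 tags at 4.81-fold, and a peak 26.1 kb upstream held 13 at 5.5-fold. The nearest Setdb1 site was 360 kb away.

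Pax7, the paired box factor of adult satellite cells, had no H3K9me3 at its start. Its 3 body peaks lay at its far end, 84.1, 84.9 and 93.7 kb from the 5′ end of a 96.5 kb gene, with 20, 15 and 10 tags at 4.65, 6.18 and 5.5-fold. No island overlapped any of them, and their scores ran from 30.71 to 43.78, beside 411.33 at the start of Pax3. The 2 paired box genes, of nearly equal length, thus differed in position and in strength, with 148 tags over the start of one and at most 20 tags near the end of the other.

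**Figure D3:**
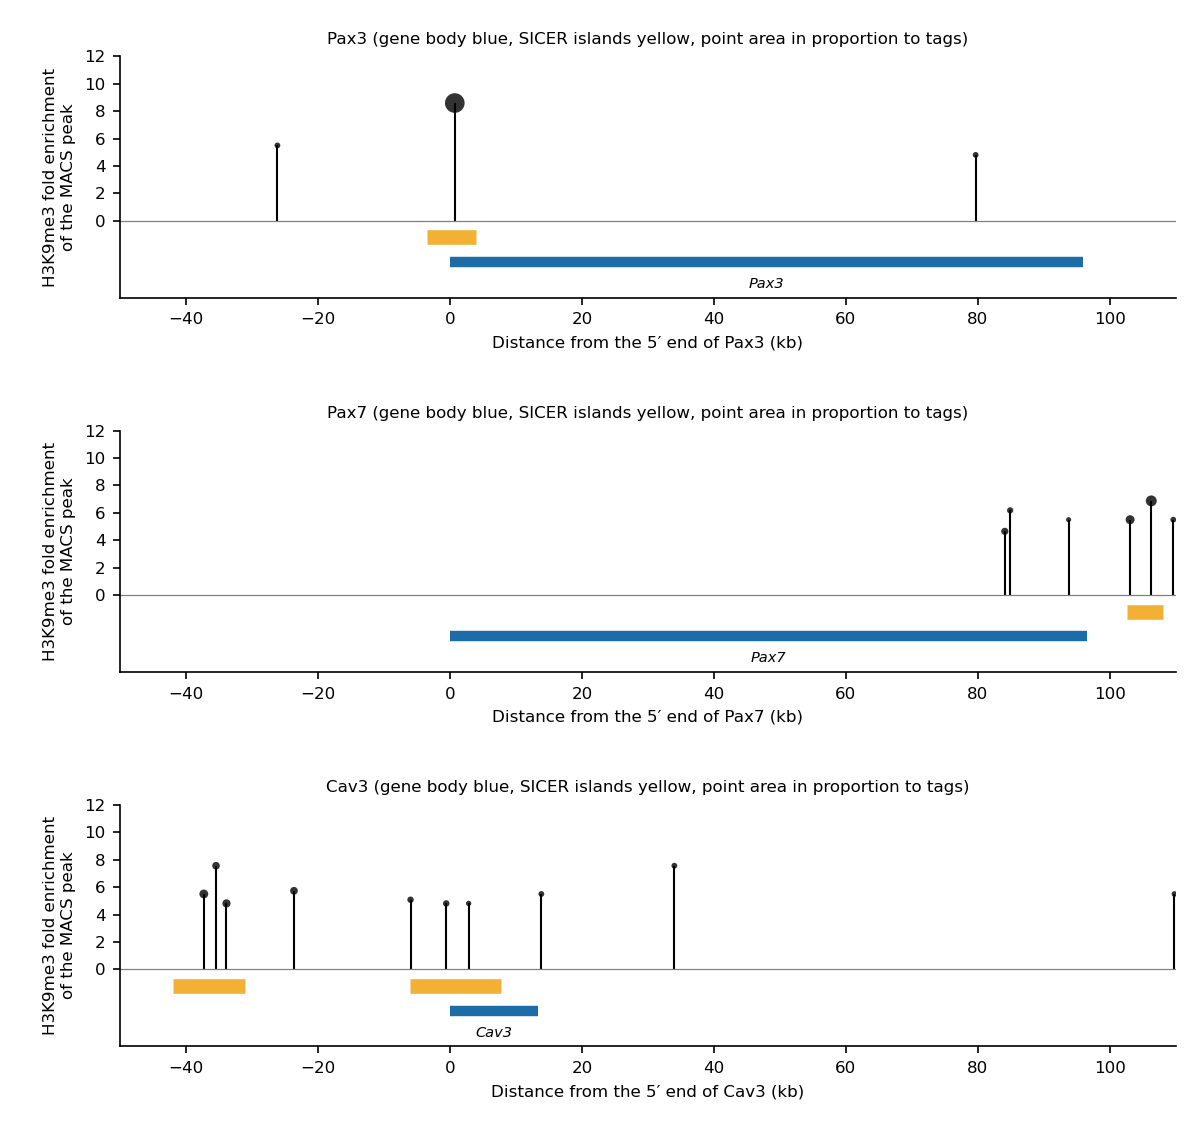
Each panel shows the fold enrichment over input of every H3K9me3 MACS peak (stems, with point area in proportion to tags) against the distance in kb from the 5′ end of Pax3, Pax7 or Cav3, with islands in yellow and the gene in blue. Pax3 has 1 tall peak of 148 tags under an island at its start, Pax7 has weak peaks at its far end only, and Cav3 has a row of small peaks, partly under broad islands.

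The plot of these 3 loci also shows the muscle caveolin gene Cav3, which forms membrane pits of the muscle fibre and was the late gene marked at its start by both callers. An island of 13.8 kb (chr6:112403401-112417200) ran over the start and covered 57.6% of the 13.4 kb gene, a cover reached by 3.14% of all genes. The peak beside the start (chr6:112408716-112409167), with its summit 0.571 kb upstream, held 16 tags (9.15 to 26.0) at 4.81-fold with a score of 33.1, lower than most of the list (top 82.0%), and a body peak held 11 tags at 4.81-fold. It had 9 peaks within reach, from 11 to 30 tags, and a second island of 10.8 kb lay 36.5 kb upstream. Pax3 and Cav3 were thus both counted as marked starts, with 148 tags in a single broad peak in the first and scattered peaks of at most 30 tags in the second.

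The 4 basic helix-loop-helix factors had no H3K9me3 at their starts or in their bodies. They are 1.87 to 3.23 kb long, and 9.12% of all genes under 10 kb held a body peak. A peak at the start was found in 8.71% of all genes, so these counts of 0 lie near the background. Myod1, the determination factor, had 4 peaks of 14, 19, 18 and 17 tags (4.81, 7.56, 5.5 and 4.86-fold) under a 6.40 kb island 36.5 to 41.3 kb upstream (chr7:53590201-53596600), and no other region within 50 kb. Myog, the differentiation factor, lay between islands, with the nearest 4.82 kb from its start, on the downstream side. Its 2 peaks lay 29.3 kb upstream, with 43 tags (31.1 to 57.9) at 6.87-fold, and 13.5 kb downstream in the next gene Ppfia4, with 23 tags (14.6 to 34.5) at 8.18-fold. Myf5, the other determination factor, and its neighbour Myf6 had none within 50 kb. Their nearest peaks were 132 and 123 kb away, distances reached by 6.80% and 7.65% of all genes, and their nearest islands 211 and 220 kb.

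Among the MEF2 factors, MADS box proteins that act with the former group, Mef2a had the most peaks in reach and Mef2d the fewest. The 142 kb gene Mef2a held 6 intronic peaks of 14 to 30 tags, 15.0 to 42.5 kb from its 5′ end, and 3 islands that covered 10.0% of it. Its best peak by fold (chr7:74478257-74478800) held 27 tags (17.8 to 39.3) at 8.25-fold and was the one of the 6 outside the islands. Mef2c held 1 intronic peak of 10 tags at 6.18-fold in 164 kb, and another of 14 tags at 4.46-fold lay 22.5 kb upstream. Mef2d, a shorter gene of 29.7 kb, had 1 peak of 23 tags at 4.81-fold, downstream of the gene, and no island within 113 kb. The nearest island to a start of Mef2c was 202 kb away.

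Six4, a homeobox factor of early muscle, was the regulator with a Setdb1 site in reach. The site (chr12:74261264-74261835) lay 47.3 kb upstream inside the gene Mnat1 and held 27 tags (17.8 to 39.3) at 6.71-fold, below the list's median of 7.32-fold. No H3K9me3 peak or island overlapped it. Six4 had 1 weak H3K9me3 peak, 46.4 kb downstream with 13 tags at 5.5-fold, and 1 island of 7.40 kb upstream in Mnat1, without a peak.

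The densest H3K9me3 of the 37 genes lay over the cluster of sarcomeric myosin heavy chains on chromosome 11. From the start of Myh3, the embryonic chain, to the end of Myh8, the perinatal chain (chr11:66891802-67122136, 230 kb), there were 21 peaks and 11 islands, and islands covered 46.6% of the sequence, beside 8.41% of chromosome 11. This made 9.12 peaks per 100 kb, beside 3.48 over the chromosome. No Setdb1 site lay in the cluster, and the nearest site to any start of its 5 members was 1110 kb away. Since reads with several matches were dropped, positions whose sequence is the same in several of these related genes could carry no tags. How much of the cluster this concerns was not measured.

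Within the cluster the genes differed in cover. Islands lay over 87.2% of Myh4 (fast chain IIb), 83.5% of Myh8, 80.1% of Myh2 (fast chain IIa), 56.3% of Myh1 (fast chain IIx) and 34.2% of Myh3, covers reached by 1.80%, 1.97%, 2.13%, 3.19% and 4.94% of all genes. The interval of 68.7 kb between Myh3 and Myh2 had 11.9%. Myh3 thus stood apart from the other 4 by position and by cover. The number of body peaks ran from 1 in Myh3 through 2 in Myh1, 3 in Myh4 and 5 in Myh2 to 7 in Myh8. Most were of ordinary size, with 12 to 32 tags outside Myh8's strongest.

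That strongest peak (chr11:67104128-67105907), whose sequence is given above, was 1.78 kb wide and held 110 tags (90.4 to 133) at 10.31-fold, with a score of 345.0. It ranked 842 by score, within the top 1.05%, lay 14.0 kb from the 5′ end in an exon of a noncoding transcript of Myh8, and was the highest in fold of the 87 peaks. The longest island near the 37 genes, 20.4 kb (chr11:67054201-67074600), ran through Myh4.

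In the cluster no start had a MACS peak within 1 kb, and 3 of the 5 genes had an island there. The nearest islands lay 1.48 kb from a start of Myh2 and 4.60 kb from one of Myh3. The start of Myh8 lay inside an island of 8.40 kb (chr11:67090201-67098600) that overlapped no peak. At Myh4 an island ended 0.514 kb before the 5′ end. At Myh1 the islands touched internal starts only, and the nearest one upstream of the 5′ end stopped 1.95 kb away. Myh7, the slow chain, lies on chromosome 14 beside Myh6 and differed, with 0 peaks and 0 islands in either gene and a single peak of 20 tags at 6.71-fold 6.96 kb upstream.

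**Figure D4:**
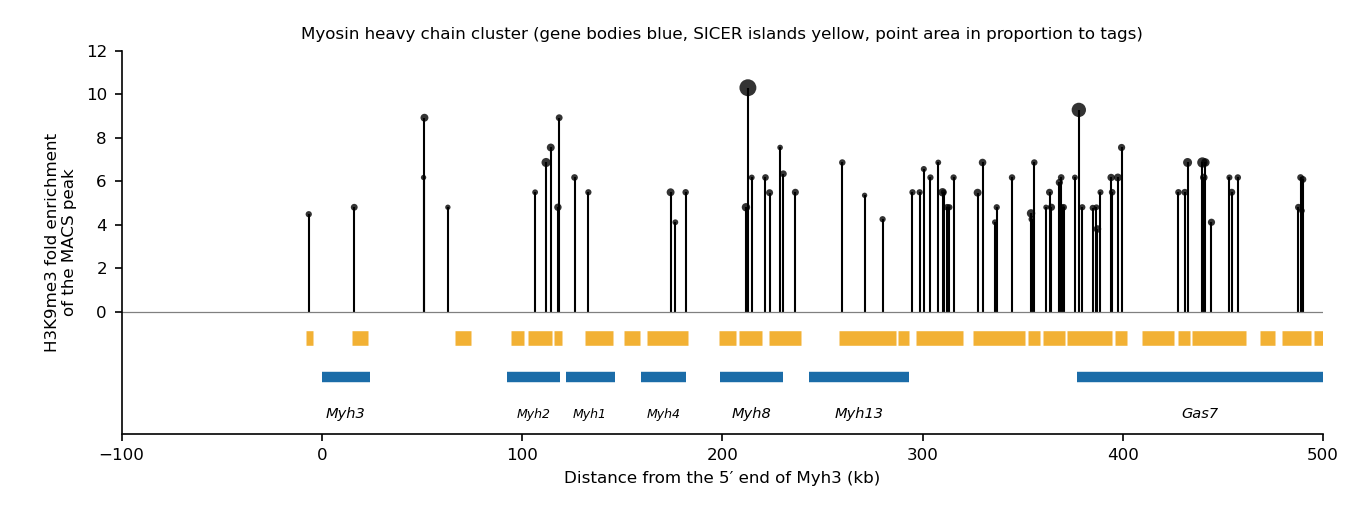
Stems give the fold enrichment over input of each H3K9me3 MACS peak (point area in proportion to tags) against the distance in kb from the 5′ end of Myh3, with SICER islands in yellow and genes in blue. Peaks and islands are sparse before Myh3 (9.70% of 200 kb in islands), dense from Myh2 on, with the 10.31-fold peak in Myh8, and continue past the cluster into Myh13 and Gas7 (78.0% of 200 kb in islands).

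The plot of the myosin cluster shows that the marked interval did not end with the 5 genes. The 200 kb after Myh8 had 78.0% of its sequence in islands and 42 peaks, more than the cluster itself, and the 200 kb before Myh3 had 9.70% and 8 peaks. The genes after Myh8 were Myh13, a further myosin heavy chain with 67.5% of its body in islands, and Gas7, a gene of the cytoskeleton. Gas7 runs past the end of the 200 kb, and over its whole body it had 60.1% in islands and 31 peaks.

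The troponins, which make contraction depend on calcium, had no peak and no island in any of 6 bodies, and for 5 of the 6 also none within 50 kb, beside 23.9% of all genes without either in any zone. Tnni2, Tnnc1 and Tnnc2 are 2.60, 3.42 and 2.81 kb long, and 9.12% of all genes under 10 kb held a body peak. Tnni1, the slow troponin I, had 1 peak of 20 tags at 6.18-fold 14.0 kb from a start, in Lad1. The fast genes Tnni2 and Tnnt3, which are neighbours on chromosome 7, lay 206 and 146 kb from the nearest peak, distances reached by 3.46% and 5.82% of all genes. The actins Acta1 and Actc1 had 1 peak each, of 20 tags at 6.18-fold 39.8 kb downstream and of 13 tags at 5.5-fold 22.5 kb downstream.

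Of the light chains, Myl4, the embryonic essential chain, had 3 body peaks of 27, 21 and 38 tags at 6.87, 6.43 and 5.26-fold, 19.0 to 37.6 kb into the gene. The middle one (chr11:104447147-104447632) was within 1 kb of an internal annotated start, 35.4 kb from the 5′ end, and no island overlapped the 3. Myl4 thus counts as marked at a start through an internal start only. Myl1, the essential chain of fast fibres, had 1 peak of 20 tags at 7.56-fold under a 5.80 kb island, 10.7 kb upstream. Mylpf, the fast regulatory chain, had 5 peaks of 13 to 26 tags, 28.7 kb downstream and 32.1 to 39.1 kb upstream. Neb, the 202 kb gene of the thin filament protein nebulin, held a single body peak of 13 tags at 4.81-fold, and a peak of 29 tags (19.4 to 41.6) at 6.87-fold under a 4.00 kb island lay 9.53 kb upstream. A peak of 24 tags at 6.82-fold under a 4.80 kb island lay past its 3′ end, 30.7 kb from an internal start.

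Among the other late genes, Ckm, the muscle creatine kinase, held an intronic peak of 19 tags (11.4 to 29.7) at 5.97-fold 2.03 kb from its start and no other region. Tmem8c, which encodes the fusion protein myomaker, held an intronic peak of 17 tags (9.90 to 27.2) at 7.56-fold, 7.20 kb from its 5′ end. Neither peak overlapped an island.

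Musk, the receptor kinase of the neuromuscular synapse, held 3 intronic peaks, of which the largest (chr4:58346217-58347057) had 55 tags (41.4 to 71.6) at 7.16-fold under a 4.20 kb island 46.9 kb into the gene. Ryr1, the calcium release channel, held 3 peaks of 24, 13 and 34 tags at 4.87, 5.5 and 6.18-fold, 76.8 to 110 kb into a 122 kb gene, the last under a 4.20 kb island. Of the acetylcholine receptor genes, Chrna1 had none within 50 kb, and Chrng had an island at 49.4 kb and no peak.

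Des, which encodes the intermediate filament protein desmin, was itself free of listed regions and lay between strong ones. A peak of 55 tags (41.4 to 71.6) at 8.15-fold lay 32.6 kb upstream. A peak 2.46 kb wide with 128 tags (107 to 152) at 7.01-fold lay 25.6 kb from the nearest start of Des, downstream, inside the muscle kinase gene Speg and 2.00 kb from a start of Speg. The second is among the 2 peaks of more than 110 tags near the 37 genes, with that of Pax3.

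Casq2, a calsequestrin that binds calcium in the sarcoplasmic reticulum, had the only Setdb1 site near the 37 genes that lay in H3K9me3. The site (chr3:101986385-101986943) was downstream, inside the gene Vangl1 and 96.3 kb from the 5′ end of Casq2, but 38.7 kb from its nearest annotated start. It held 34 tags (23.5 to 47.5) at 6.74-fold. It overlapped an H3K9me3 peak of 44 tags (32.0 to 59.1) at 8.83-fold and a 12.4 kb island with 5 peaks. In its body Casq2 held 1 intronic peak of 31 tags at 4.79-fold, and 46.9 kb upstream lay one of 15 tags at 5.04-fold. The site near Tnnt3 (chr7:149719212-149719707) lay downstream, 19.4 kb from the nearest start of Tnnt3 and 0.555 kb from that of the mitochondrial ribosomal protein gene Mrpl23. It held 24 tags (15.4 to 35.7) at 6.71-fold, and no H3K9me3 peak or island overlapped it. The 3 sites held 24 to 34 tags, beside a median of 33.0 in the list. Of all sites in the list, 65.0% overlapped an H3K9me3 MACS peak, islands not counted.

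Most starts of the 37 genes were poor in CpG, a property that the choice of genes by name did not use. Within 250 bp of the 5′ end, 5 of the 37 (Pax7, Mef2a, Mef2d, Myl4 and Des) were CpG-rich, meaning above 50% GC with an observed to expected CpG ratio over 0.6. This was 13.5% of the members, beside 47.7% of all genes. The median CpG ratio was 0.285 for the 37 genes and 0.588 for all genes, and within the 37 it was 0.523 for regulators, 0.205 for contractile genes and 0.285 for other late genes. Pax3, at 0.588, was just under the limit, as was Six4 at 0.589. Over all genes, a MACS peak lay within 1 kb of the 5′ end in 7.68% of CpG-rich and 5.70% of other starts. Of the members, 0 of 5 CpG-rich and 2 of 32 other starts had one.

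**Figure D5:**
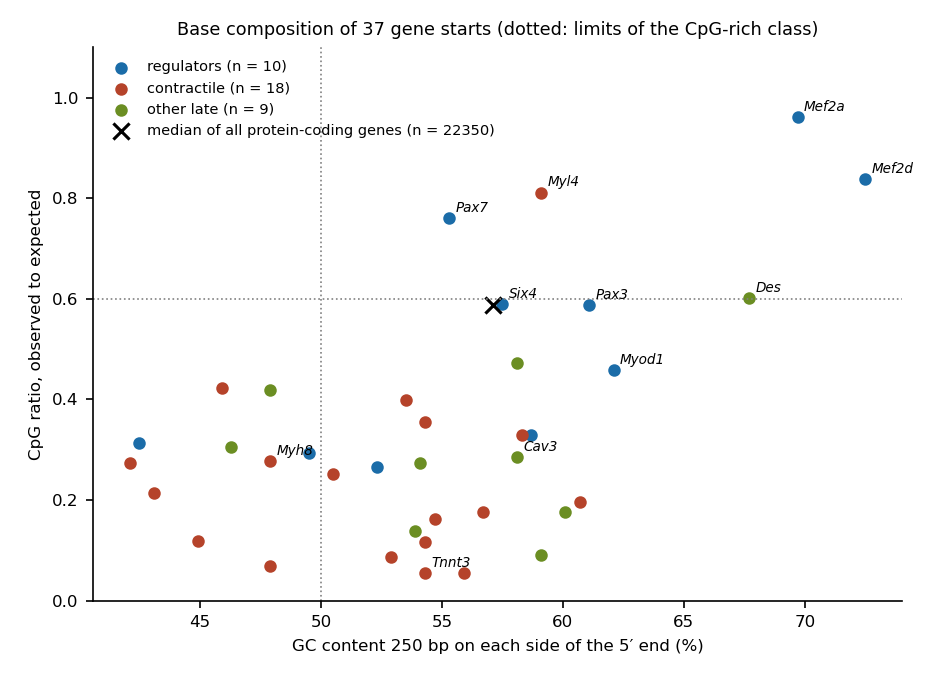
Each point is 1 of the 37 genes, by the GC content (%) and the CpG ratio of the 250 bp on each side of its 5′ end, and the cross is the median of all protein-coding genes. Most contractile genes lie low, with a median ratio of 0.205, and 5 genes lie in the upper right field bounded by the dotted limits.

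The plot of base composition has Chrng and Tnnt3 among the lowest points, at 0.0915 and 0.0542. The E-box CANNTG is bound by the basic helix-loop-helix factors, and the letters CAGCTG, one form of it, are those preferred by MyoD. Searched on both strands from 250 bases before to 50 after the 5′ end, CANNTG stood in 26 of the 37 (70.3%), beside 69.6% of all genes, and CAGCTG in 13 (35.1%), beside 15.2%. By group CAGCTG stood in 2 of 10 regulators, 4 of 18 contractile genes and 7 of 9 other late genes. The letters CTANNNNTAG, a MEF2 motif, stood in 3 of 37 (8.11%), beside 3.55%. For the 2 genes shown here, neither of which had H3K9me3 at its start, the 200 bases before the 5′ end are printed with CAGCTG in capitals for Chrng (chr1:89102186-89102385, plus strand) and with the 2 E-boxes in capitals for Myog (chr1:136186381-136186580, plus strand).
Chrng upstream: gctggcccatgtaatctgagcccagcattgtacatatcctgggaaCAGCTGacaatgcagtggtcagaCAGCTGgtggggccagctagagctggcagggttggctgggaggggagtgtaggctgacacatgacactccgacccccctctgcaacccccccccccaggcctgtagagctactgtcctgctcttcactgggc
Myog upstream: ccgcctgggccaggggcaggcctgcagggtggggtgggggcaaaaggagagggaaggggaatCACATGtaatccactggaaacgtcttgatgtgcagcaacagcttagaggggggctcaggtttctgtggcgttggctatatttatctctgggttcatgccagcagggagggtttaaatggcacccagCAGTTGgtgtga
Chrng, the gamma subunit of the fetal acetylcholine receptor, held CAGCTG at 2 positions. Myog held 2 E-boxes of other forms.

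A pair of wider lists of the same programme were read the same way, 28 further regulators and 50 further muscle genes. Among the further regulators 6 of 28 (21.4%) had a MACS peak at a start, 15 (53.6%) in the body and 25 (89.3%) within 50 kb, beside 8.71%, 28.1% and 74.4% of all genes. Of the 28, 18 (64.3%) had a CpG-rich start, beside 47.7%. Among the further muscle genes the counts were 5 of 50 (10.0%), 18 (36.0%) and 37 (74.0%). A Setdb1 site lay within 50 kb of 5 of 28 and 3 of 50, beside 8.14% of all genes. They included Myot at 9.72-fold, where the site lay 0.239 kb from a start of Dcp2, Eya1 at 9.39-fold, 26.4 kb upstream in H3K9me3, Eya2 at 7.77-fold, inside Zmynd8, and Met at 6.91-fold. Mb, the myoglobin gene, had 3 sites within 50 kb upstream, of 5.37, 6.56 and 6.48-fold.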

How the data were processed

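Per the labels and the study's methods, reads were aligned by the authors to mm9 with Bowtie 0.12.7, keeping unique alignments and removing duplicates. Stretches whose reads match several places, as in some repeats and paralogues, therefore lack tags. H3K9me3 peaks were called over input with MACS 1.4 (p limit 0.001), islands with SICER (use of an input not stated), and Setdb1 sites by stricter limits, with a lowest fold of 4.01 and a highest false discovery rate of 1.0%. The deposited tag counts are whole reads not scaled for depth. The fold enrichment deposited beside them is a ratio of tags to the input background of MACS. The score is deposited as minus 10 times the log10 of p, and the authors' false discovery rate is in percent.

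Genes came from GENCODE on NCBIM37, the same assembly as mm9, with 70018 annotated starts of protein-coding genes. Tnnc1 has 2 records, and the shorter was used. SICER starts were read as counted from 0. A zone counted if it overlapped a region by 1 bp. Tags have exact Poisson 95% intervals, which cover counting error only. The interval functions were checked against a plain loop on simulated intervals and genes, with equal results. The members, lists and rules were chosen with earlier results of these data known, so shares are given beside those of all genes without a test. Named are all members and, of the wider lists, genes from the 6 with a Setdb1 site within 50 kb and the highest fold, of which 1 is not reported here. Genes that only hold or neighbour a region were named after their values were seen, as were the further genes in the closing section. Alternatives changed the starts, the overlap, the strength, the caller and the windows. Wnt3a treatment was not analysed here. Python 3.11.15 was used with NumPy 2.4.6, pandas 2.3.3, SciPy 1.17.1 and Matplotlib 3.10.9.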

Additional observations from a re-analysis of the deposited data

How the results depend on the processing

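The 9 counts of the 37 genes were recomputed under 51 alternatives, and 37 of these stayed within 1.5 times. Some of these alternatives could not have moved a count. The choice of start does not enter a body count, and stricter settings cannot lower the Setdb1 counts of 0 at starts and in bodies. Peaks with p below 1e-05 left 1 of 3 genes at starts, 9 of 17 in bodies and 15 of 26 within 50 kb, beside 4.95%, 17.9% and 51.7% of all genes. Peaks of at least 8-fold left 1, 4 and 9, beside 1.66%, 7.37% and 22.6%. Peaks that overlap an island left 10 in bodies and 17 within 50 kb, beside 16.9% and 46.6%. Islands whose middle lay in the zone marked 3 starts (3.23%), and a window of 20 kb held an island for 11 genes (30.5%). Setdb1 sites of at least 8-fold reached 0 members (3.12%), sites that overlap H3K9me3 reached 1 (5.07%), and windows of 20 and 100 kb gave 1 and 7 (4.00% and 14.2%). No paired analysis was possible because there is 1 library a group and the counts come from no test. The lists give no depth per library, so a gene without a region may lie below the callers' limits.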

Other observations

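Among the further regulators, named here after their values were seen, a single H3K9me3 peak over a start exceeded every peak near the 37 genes in tags and in fold. This was in Six2, a homeobox factor related to Six4, with a peak of 2.68 kb with 192 tags (exact Poisson 95% interval 166 to 221, counting error only) at 13.06-fold over its first part, with a score of 685.25 that ranked 219 of 80480 peaks, within the top 0.272%. Twist1, an inhibitor of the myogenic basic helix-loop-helix factors, had peaks of 47 tags (34.5 to 62.5) at 7.56-fold and 28 tags (18.6 to 40.5) at 7.32-fold on either side of its start under a 4.80 kb island. Id1, which binds the partners of these factors without binding DNA, had one of 55 tags (41.4 to 71.6) at 4.87-fold. None of these starts had a Setdb1 site within 1 kb.

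Among the further muscle genes, Sgcd, a sarcoglycan of the fibre membrane, had a start peak of 67 tags (51.9 to 85.1) at 8.93-fold. Cacng1, a subunit of the muscle calcium channel, had adjoining body peaks of 233 tags (204 to 265) at 8.38-fold and 153 tags (130 to 179) at 7.18-fold under a 17.0 kb island, above the 148 tags of Pax3.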
